A study of Mus musculus with 6 samples.

Results

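The genes described here were chosen by symbol as genes of motile cilia, the beating cilia carried by ependymal cells. They are 69 of the 22322 gene identifiers measured in the arcuate nucleus (ARC) of male mice on a normal-chow or a high-fat diet. An identifier was taken when its mouse symbol begins with Dnah, Dnai, Cfap, Rsph or Tekt. *Foxj1*, *Hydin*, *Spag6l*, *Spag16*, *Spag17*, *Ccdc39*, *Ccdc40* and *Ccdc153* were added by name. The rule itself uses no measured value, although it was written with earlier results of these data known. Of the 69 genes, 63 had enough reads for the comparison of the diets, out of 14188 genes tested in all.

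The mice were males, which ate normal chow (NCD) with 16.5% fat, or else the high-fat diet (HFD) with 60% fat, from 4 weeks of age for 16 weeks. The methods of the study name C57BL/6J wild type mice and, to show *Kiss1* neurons, a cross of Kiss1-Cre with R26R-EYFP mice, and the labels give no strain for these samples. The ARC, a hypothalamic nucleus at the floor of the third ventricle, was cut from frozen brain sections with a laser, and its polyadenylated RNA was sequenced. There were 3 samples of each diet, named NCD1 to NCD3 and HFD1 to HFD3 after the letters C and H and the numbers in their titles. Whether a sample was 1 mouse or a pool is not stated, so the p-values measure the spread between these samples, which may be technical. The totals were 15925648, 9937632 and 6882449 counts in NCD1 to NCD3 and 8024664, 10479778 and 5171381 counts in HFD1 to HFD3.

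A motile cilium is moved by dynein motors that sit in outer and inner arms on a ring of microtubules. Radial spokes and a central pair of microtubules regulate the motors, and tektins and other inner proteins stiffen the microtubule walls. In the brain the ependymal cells that line the ventricles carry tufts of such cilia, which move the cerebrospinal fluid, and the transcription factors FOXJ1 and RFX2 to RFX4 switch the ciliary genes on. Tanycytes, the neighbouring cells on the floor of the third ventricle, largely lack motile cilia.

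RFX factors are known to bind the X-box, an inverted repeat, in the promoters of ciliary genes. Promoter windows of 250 bases before to 50 bases after the gene start (RefSeq, GRCm38.p6) were matched by symbol for 57 of the 69 genes, 64 windows in all. The letters GTTNCC and GNAAC with any 3 bases between them (NNN), searched on both strands, stood in 7 of the 57 genes (12.28%) and in 253 of the 27025 genes with a window (0.936%). The 7 are shown because they are the stretches with the full match among the genes described. They are read 5′ to 3′ on the strand that gives the gene's own direction, with the 14 matching bases in capitals. In *Cfap44*, *Cfap45*, *Hydin* and *Tekt4* the match is on the opposite strand, so the capitals fit the letters as their reverse complement.

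*Cfap298*, chr16:90935016-90935045, minus strand: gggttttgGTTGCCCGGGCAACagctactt
*Cfap44*, chr16:44394764-44394793, plus strand: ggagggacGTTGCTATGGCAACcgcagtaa
*Cfap45*, chr1:172521103-172521132, plus strand: gttcttggGTTGCTATGGTAACgcgtcagc
*Cfap61*, chr2:145934768-145934797, plus strand: gccgcgtcGTTTCCTTAGCAACtgtgtgcg
*Hydin*, chr8:110266948-110266977, plus strand: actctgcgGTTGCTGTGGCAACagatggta
*Spag16*, chr1:69826859-69826888, plus strand: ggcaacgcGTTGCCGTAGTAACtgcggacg
*Tekt4*, chr17:25471582-25471611, plus strand: tatacaatGTTCCTTAGGCAACcaggaacc

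The match ended 7 bases before the RefSeq start in *Hydin*, 5 in *Cfap45*, 13 in *Cfap44*, 89 in *Spag16* and 174 in *Cfap298*. In *Cfap61* it began 8 bases before the start and ran across it, and in *Tekt4* it began at the start. In *Cfap298*, *Cfap45* and *Tekt4* the window lay inside the GENCODE gene model, whose first start differs from the RefSeq one. The shorter letters GTTGCC, which overlap the X-box letters, stood in 23 of the 57 genes (40.35%) against 14.1% of all genes. The forkhead letters TGTTTAC stood in 4 of the 57 (7.02%) against 4.05% of all genes. These are matches of letters and not shown to be bound.

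Of the 69 motile cilia genes, 67 or 68 had at least 1 count in each sample, and their levels spanned several orders of magnitude. On the FPKM scale, which divides by gene length and so permits a comparison between genes, the median of the 69 genes was 4.28. The most abundant were *Cfap36* at 104 FPKM, *Rsph9* and *Ccdc153*, both at 92.3 FPKM, *Cfap298* at 49.7 FPKM and *Cfap20* at 44.0 FPKM, each a mean over the 6 samples. The dynein heavy chains were far lower per length, from *Dnah1* at 5.89 FPKM to *Dnah8* at 0.17 FPKM among those tested.

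Exons of 28 of the 69 genes overlap a gene on the other strand, among them *Ccdc39* (*Ttc14*), *Spag17* (*Wdr3*), *Dnaic1* (*Enho*), *Cfap97* (*Snx25*), *Cfap298*, *Dnah1*, *Dnah9* and *Hydin*, and exons of 3 overlap one on the same strand. With no statement on strand in the sources used here, reads of such overlaps cannot be told apart, and this limit holds for each value of these genes.

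Marker genes outside the list describe the tissue. The ependymal genes *Tmem212* and *Rarres2* averaged 65.0 and 135 FPKM, and all 11 ependymal marker genes were tested. Of the 11 marker genes of ARC neurons, *Cartpt* averaged 749 FPKM and *Pomc* 667 FPKM, and the lowest were *Tbx3* at 3.95 FPKM and *Nr5a2* at 0.64 FPKM. *Kiss1*, the marker of the neurons whose region was cut out, had 0, 27 and 32 counts in NCD1 to NCD3 and 0, 21 and 42 counts in HFD1 to HFD3. It was thus not detected in NCD1 and HFD1, where a count of 0 allows up to 0.188 and 0.374 CPM. Of the 13 choroid plexus genes, *Prlr* averaged 19.1 FPKM, *Tmem72* 7.45 FPKM and *Clic6* 6.85 FPKM, *Ttr* (1.61 to 3.14 FPKM) and *Folr1* (0.70 to 3.45 FPKM) were lower, and *Aqp1*, *Slc4a5* and *Kcne2* stayed under 10 counts in each sample. Of the 9 pituitary and pars tuberalis genes, *Chga*, which neurons also make, averaged 162 FPKM and *Cga* 24.9 FPKM, *Fshb* stayed under 10 counts in each sample, and *Prl* and *Gh* had no count. The samples were pieces of tissue, so fewer ependymal cells and less RNA per cell cannot be told apart, and a gene of the list that other ARC cells also use cannot be assigned to the ependyma.

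No motile cilia gene passed the test for a difference between the diets. In edgeR's quasi-likelihood test with Benjamini-Hochberg adjustment over all genes, 0 of the 63 genes had an adjusted p under 0.05, beside 8 of 14188 genes in all (0.0564%), and DESeq2 also called 0. At an unadjusted p under 0.05 stood 1 gene, *Tekt4* (1.59%), beside 2.3% of all genes tested. It also differed by over 1.5-fold, and 1.9% of all genes tested had both such a p and such a fold. In 4 genes (6.35%) every sample of one diet lay beyond every sample of the other, with *Cfap298* and *Tekt4* higher and *Dnah5* and *Dnah8* lower in HFD, and this held for 6.47% of all genes tested. These shares were near the background.

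The direction was mixed. The log2 fold change, HFD against NCD, was above 0 in 27 of the 63 genes and below 0 in 36, beside 50.5% of all genes tested above 0, with a median of -0.02 beside 0.00317 over all genes tested. Without HFD2 it was above 0 in 41 of 64 genes, with a median of 0.125, and without HFD3 in 23 of 65. Of the 27 genes whose fold change was recomputed under other settings and with 1 sample left out, 15 turned sign at least once. The log2 fold change ranged from -0.74 to 0.99, and 57 genes lay between -0.5 and 0.5. The 95% interval included 0 in 62 genes and lay within 2-fold either way in 37, so that for the other genes a 2-fold difference is not excluded at this depth. The median standard error was 0.312 on the log2 scale, against 0.257 over all genes tested.

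**Figure D1:**
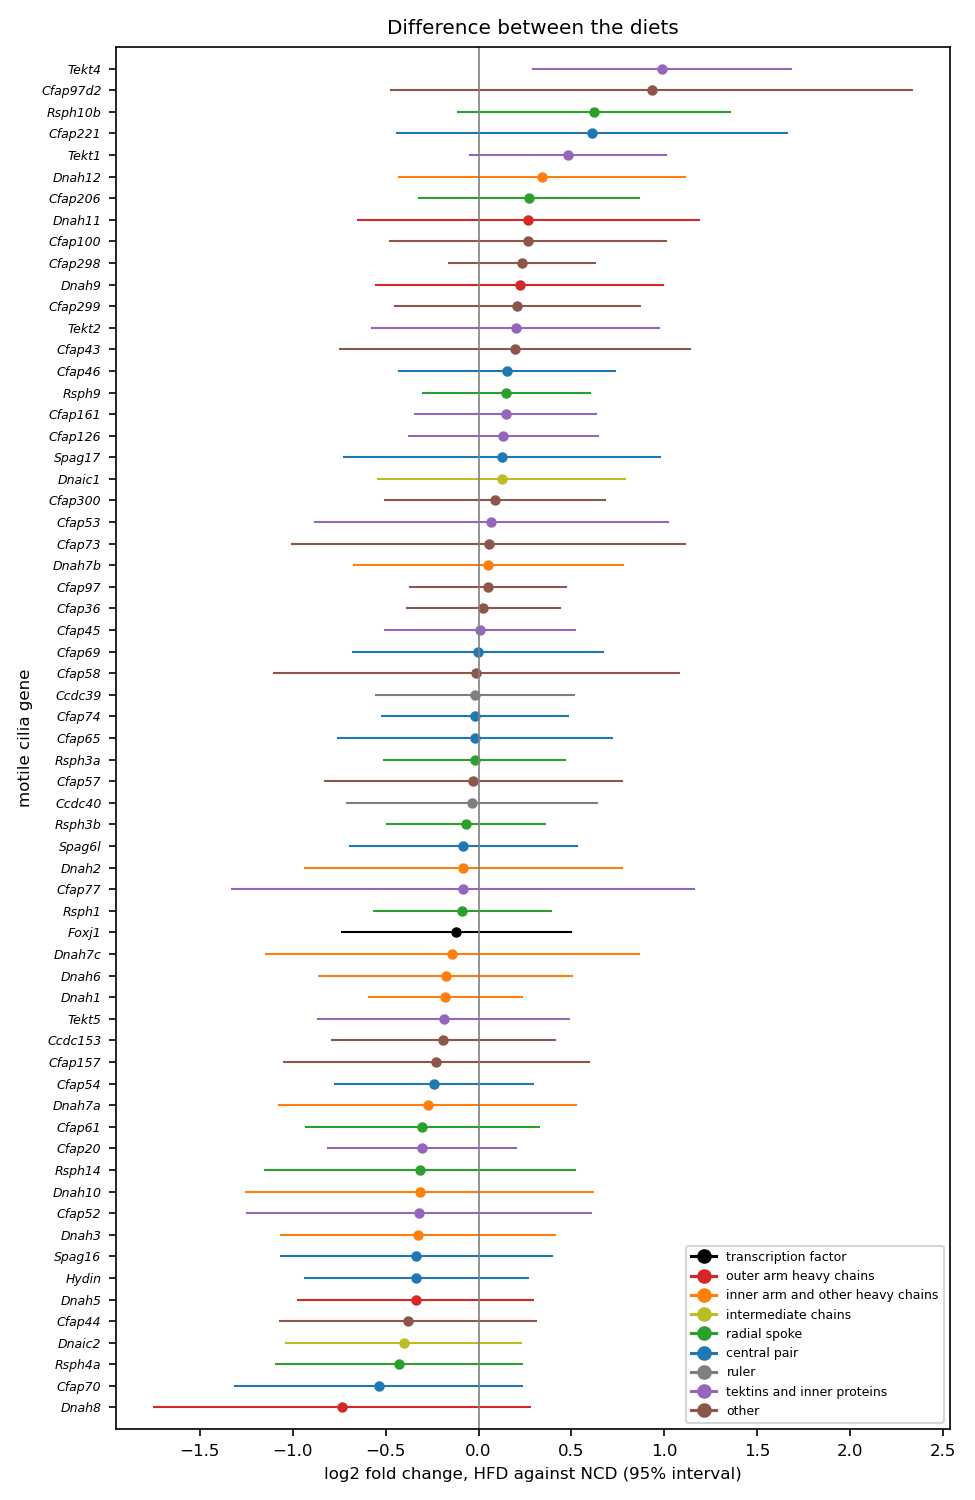
Log2 fold change of each of the 63 motile cilia genes tested, HFD against NCD (x axis), with the 95% interval of edgeR's quasi-likelihood fit. Genes are ordered by their value and coloured by their part of the cilium; only the interval of *Tekt4* at the top lies off 0, and its adjusted p was 0.999.

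Taken as one sum, the motile cilia genes made up 1441, 1454 and 1418 CPM (counts divided by the library size, which was scaled by the TMM method) in NCD1 to NCD3 and 1484, 1261 and 1540 CPM in HFD1 to HFD3. The NCD samples lay close together, while HFD2 lay below and HFD1 and HFD3 above all of them. NCD averaged 1438 ± 18.3 CPM against 1428 ± 147 CPM for HFD (SD, n = 3), and the difference of -0.675% was smaller than the spread between HFD samples. The summed FPKM were 781 ± 42.0 in NCD and 799 ± 69.8 in HFD (SD, n = 3).

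The regulator *Foxj1* (ENSMUSG00000034227, chromosome 11, 116330704 to 116335399, GRCm38), which drives the program of motile cilia, also spread more within HFD than within NCD. Its level was 28.7, 23.1 and 28.0 CPM in NCD1 to NCD3 and 33.8, 14.6 and 25.2 CPM in HFD1 to HFD3. HFD1 was the highest and HFD2 the lowest of all 6 samples, so the diets overlapped. The log2 fold change was -0.12 (SE, standard error, 0.28; adjusted p = 0.999), and without HFD2 it was 0.15. Of the other regulators of multiciliated cells, fixed as a list of 14 genes, 9 were tested, 5 above and 4 below 0. *Rfx2* was the only one of these with an unadjusted p under 0.05 (log2 fold change -0.86, adjusted p = 0.999 in edgeR's test), at 10.3, 6.82 and 6.62 CPM in NCD and 5.10, 3.16 and 5.08 CPM in HFD, with no overlap. Over all genes tested, 1.09% were lower in HFD with such a p, and in 6.47% the diets did not overlap. *Rfx3* had a log2 fold change of 0.24. *Mcidas* and *Gmnc*, which start the formation of many centrioles in a cell that is becoming multiciliated, stayed under 10 counts in each sample.

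The dynein heavy chains are the motor subunits, and their transcripts are long. The log2 fold change was above 0 in 4 and below 0 in 9 of the 13 that were tested, with a median of -0.18 and no unadjusted p under 0.05. Of the outer arm, *Dnah9* (chromosome 11, 65831282 to 66168551) was at 11.7, 12.8 and 13.4 CPM in NCD and 13.2, 7.59 and 24.1 CPM in HFD. The HFD samples enclosed the NCD samples on both sides, and the log2 fold change was 0.22 (SE 0.36, adjusted p = 0.999; -0.29 without HFD3 and 0.55 without HFD2). *Dnah5* was at 14.3, 14.1 and 13.4 CPM in NCD and 13.1, 6.90 and 13.4 CPM in HFD. Its diets did not overlap by a narrow margin, as HFD3 was just under NCD3 (log2 fold change -0.34, SE 0.29, adjusted p = 0.999; -0.08 without HFD2). *Dnah8* had the lowest log2 fold change of the 63 genes, -0.74 (95% interval -1.75 to 0.28), at 2.71, 2.75 and 1.81 CPM in NCD and 1.74, 1.18 and 1.51 CPM in HFD.

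Of the inner arm and the other heavy chains, *Dnah1* was the most abundant, and it hardly varied within HFD. It was at 91.6, 79.8 and 69.7 CPM in NCD and 70.8, 73.0 and 69.2 CPM in HFD (log2 fold change -0.18, SE 0.19, adjusted p = 0.999). *Dnah12* was at 20.1, 24.8 and 31.3 CPM in NCD and 23.4, 18.6 and 55.1 CPM in HFD, with HFD3 far above the rest. The log2 fold change of 0.34 (SE 0.36, adjusted p = 0.999) turned to -0.27 without HFD3. *Dnah6* was at 27.3, 23.9 and 20.0 CPM in NCD and 20.3, 11.8 and 31.8 CPM in HFD, where again HFD2 was the lowest and HFD3 the highest of the 6 samples. *Dnah7a*, *Dnah7b* and *Dnah7c* are close copies, and reads may have been divided among them, so their separate values are uncertain. The intermediate chains *Dnaic2* and *Dnaic1*, which anchor the outer arm, had log2 fold changes of -0.40 and 0.12.

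**Figure D2:**
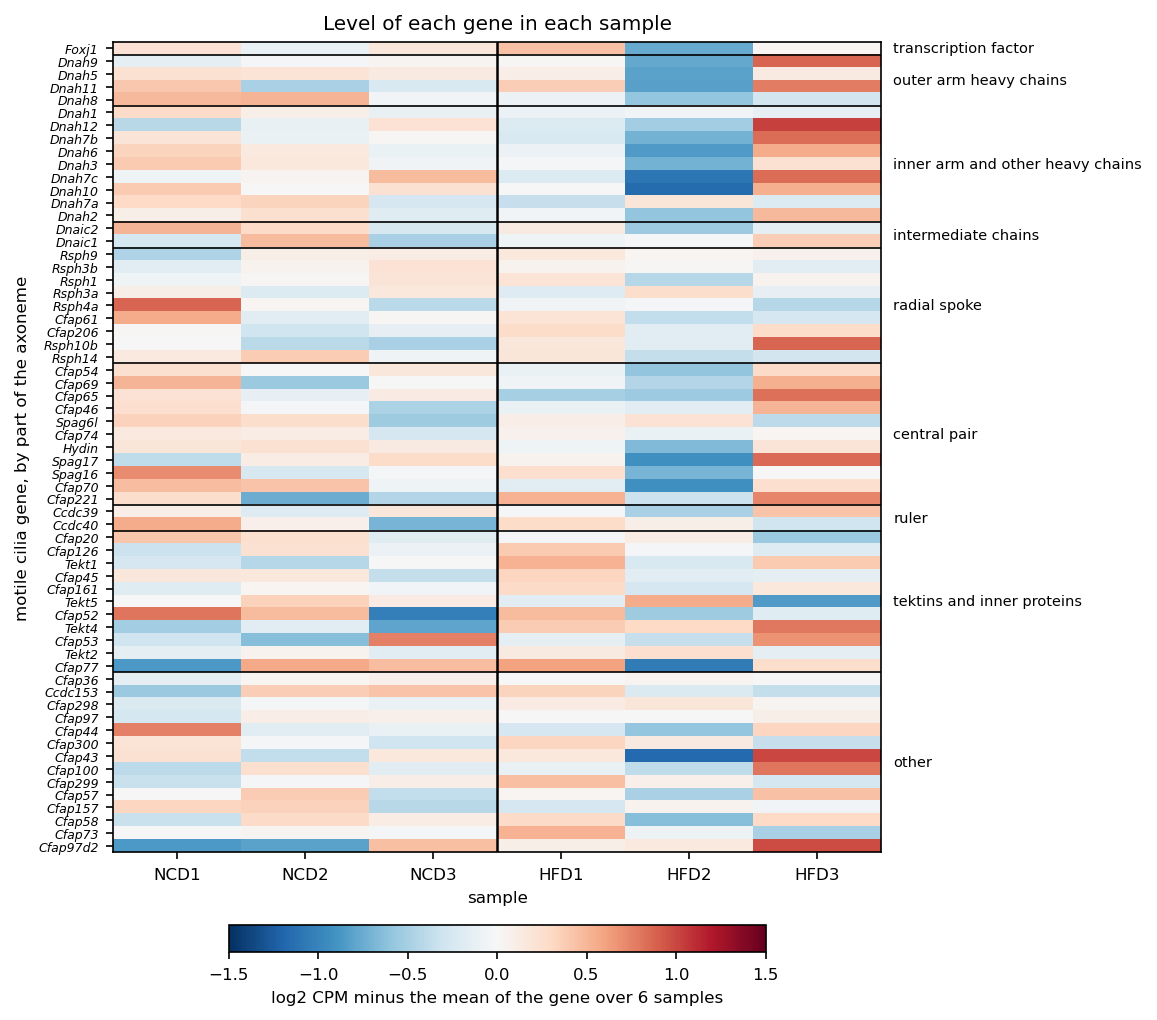
Log2 CPM of each of the 63 motile cilia genes tested (rows, grouped by part of the cilium) in each of the 6 samples (columns), shown as the difference from the gene's own mean over the 6 samples. Most dynein heavy chains and central pair genes are blue in HFD2 and red in HFD3, while no group of genes divides the 3 NCD from the 3 HFD columns.

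Among 9 radial spoke genes that were tested, 3 were above and 6 below 0. *Rsph9* (chromosome 17, 46122035 to 46144216), a protein of the spoke head, was at 59.2, 87.0 and 88.5 CPM in NCD and 90.9, 83.5 and 85.6 CPM in HFD. NCD1 stood below the other 5 samples, which lay close together (log2 fold change 0.15, SE 0.21, adjusted p = 0.999; -0.03 without NCD1). The other abundant spoke gene, *Rsph3b*, had a log2 fold change of -0.07. *Rsph4a*, also of the spoke head, was at 37.6, 20.9 and 15.5 CPM in NCD and 19.8, 20.2 and 15.2 CPM in HFD, and only NCD1 was apart from the rest (log2 fold change -0.43, SE 0.31, adjusted p = 0.999; 0.00777 without NCD1). *Rsph10b* had a log2 fold change of 0.62 (95% interval -0.11 to 1.35, adjusted p = 0.999 in edgeR's test). It shares exonic sequence with *Pms2* on the same strand, so its counts are uncertain.

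The central pair had 11 genes, 3 above and 8 below 0. *Hydin* (chromosome 8, 110266977 to 110610253), a very large protein of the central pair whose loss causes hydrocephalus, was at 14.0, 14.5 and 13.5 CPM in NCD and 11.8, 7.69 and 14.1 CPM in HFD. HFD1 and HFD2 were below all NCD samples and HFD3 was among them (log2 fold change -0.34, SE 0.28, adjusted p = 0.999; -0.12 without HFD2 and -0.53 without HFD3). *Spag17* was at 8.67, 12.3 and 13.8 CPM in NCD and 11.8, 5.92 and 20.7 CPM in HFD, with HFD samples at both ends of the range (log2 fold change 0.13; -0.39 without HFD3). *Spag6l* and *Spag16*, further proteins of the central pair, had log2 fold changes of -0.08 and -0.33, and *Cfap54* and *Cfap69*, its most abundant genes by CPM, -0.24 and -0.00226. *Cfap70* had the second lowest value of the 63 genes, -0.54 (95% interval -1.31 to 0.23), at 9.87, 9.57 and 6.77 CPM in NCD and 6.34, 3.65 and 8.47 CPM in HFD. Its HFD3 value lay between NCD samples, and the log2 fold change was -0.26 without HFD2 and -0.82 without HFD3.

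*Ccdc39* and *Ccdc40* encode the ruler that sets where spokes and inner arms attach, and both were close to 0. *Ccdc39* was at 45.5, 37.1 and 47.6 CPM in NCD and 41.6, 30.2 and 57.2 CPM in HFD (log2 fold change -0.02, SE 0.25, adjusted p = 0.999; 0.18 without HFD2). *Ccdc40* had a log2 fold change of -0.04 (SE 0.31). HFD2 and HFD3 were the lowest and the highest of the 6 samples for *Ccdc39*, but for *Ccdc40* these were NCD3 and NCD1.

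Of the tektins and other proteins inside the microtubule walls, 7 genes were above and 4 below 0. *Tekt4* (ENSMUSG00000024175, chromosome 17, 25454615 to 25476602) was at 4.58, 5.90 and 3.76 CPM in NCD and 8.70, 8.18 and 11.7 CPM in HFD. All HFD samples were above all NCD samples, and the means were 4.75 ± 1.08 and 9.52 ± 1.88 CPM (SD, n = 3). The log2 fold change was 0.99 (SE 0.32, 95% interval 0.29 to 1.68), with p = 0.00921 before and p = 0.999 after edgeR's adjustment over all genes, and the exact permutation test over the samples gave p = 0.1, the smallest it can give. The counts behind these values were 76, 58 and 25 in NCD and 70, 83 and 62 in HFD. *Tekt1*, a further tektin, was at 26.0, 23.0 and 30.9 CPM in NCD and 44.5, 26.3 and 40.6 CPM in HFD, where HFD2 fell within the NCD range (log2 fold change 0.48, SE 0.24, adjusted p = 0.999; the gene was picked out after its values were seen). *Tekt2* had 0.20 and *Tekt5* -0.19. *Cfap20* and *Cfap126*, the most abundant by CPM of these genes, had log2 fold changes of -0.30 and 0.13.

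Among the 14 other cilia and flagella associated genes that were tested, 9 were above and 5 below 0. *Ccdc153* (chromosome 9, 44240676 to 44247306), used as a marker of ependymal cells, was at 49.9, 94.4 and 98.9 CPM in NCD and 92.5, 62.9 and 57.0 CPM in HFD. NCD1 was the lowest of the 6 samples and the diets overlapped (log2 fold change -0.19, SE 0.28, adjusted p = 0.999; -0.46 without NCD1 and -0.02 without NCD3). *Cfap36*, the most abundant gene of the list, was at 157, 176 and 183 CPM in NCD and 172, 178 and 174 CPM in HFD. That is a narrow range, and its 95% interval of -0.39 to 0.44 lay within 2-fold. *Cfap298*, an assembly factor of the dynein arms, was at 58.2, 66.4 and 63.0 CPM in NCD and 74.0, 76.7 and 69.8 CPM in HFD. The groups did not overlap, but the log2 fold change was only 0.23 (SE 0.18, adjusted p = 0.999). *Cfap97d2* had the second highest value, 0.93 (95% interval -0.47 to 2.33), at 0.482 to 2.26 CPM.

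**Figure D3:**
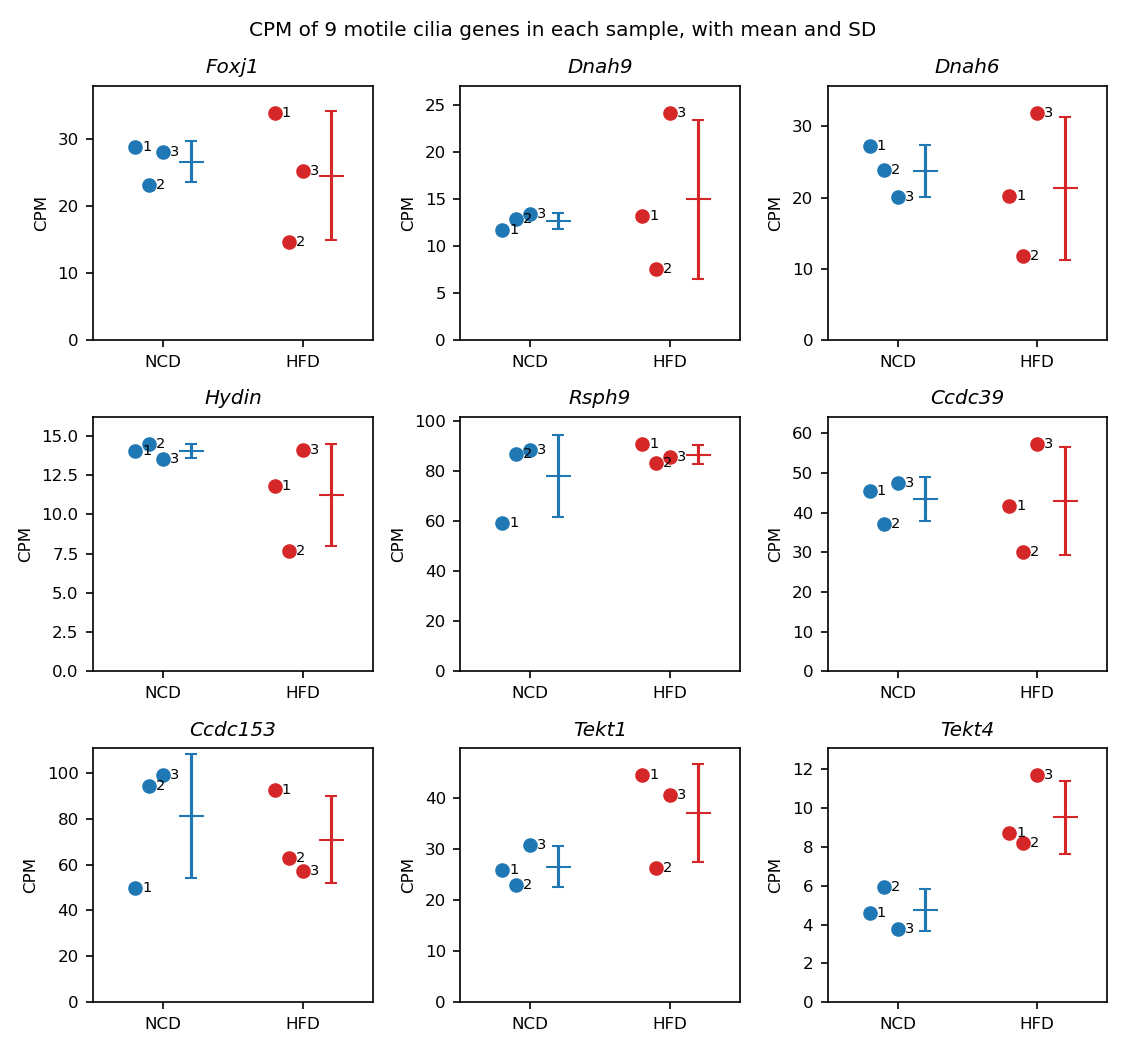
CPM of 9 motile cilia genes in each of the 3 NCD samples (blue) and 3 HFD samples (red), numbered by sample, with the mean and SD of each diet beside the points; every y axis starts at 0. For *Foxj1*, *Dnah9*, *Dnah6*, *Hydin* and *Ccdc39*, HFD2 is the lowest point of its panel, and *Tekt4* is the only panel in which the diets do not overlap.

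The 6 genes that were not tested had too few reads in too many samples to pass the filter. *Dnah14* ranged from 0.376 to 1.83 CPM, *Cfap99* from 0.188 to 2.11 CPM (29 counts in NCD1 and 17 in HFD1), *Dnah17* from 0.151 to 0.814 CPM and *Tekt3* from 0 to 0.602 CPM. *Rsph6a* was at 1.32 CPM in HFD3 and at most 0.373 CPM elsewhere. *Cfap97d1* had no count in any sample, which allows up to 3 counts, or 0.188 CPM in the deepest and 0.58 CPM in the shallowest library (counting error only).

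The HFD samples differed from each other more than the diet means did. HFD2 had the lowest value of the 6 samples in 29 of the 63 genes (46%), beside 13.8% of all genes tested. HFD3 had the highest in 23 (36.5%), beside 25% of all genes tested. HFD1 was the lowest in 1 gene (1.59%), beside 8.93% of all genes tested. On average over the 63 genes, log2 CPM stood 0.33 below the gene's own mean in HFD2 and 0.20 above it in HFD3. HFD3 and HFD2, a pair picked out after the values were seen, are therefore compared as single samples, with no test. HFD3 exceeded HFD2 in 45 of the 63 genes (71.4%), beside 50% of all genes.

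The gap differed between the parts of the cilium. It was 1.09 on the log2 scale on average over the 13 dynein heavy chains, of which 11 were higher in HFD3, and 0.81 over the central pair, with 10 of 11 higher. It was only 0.13 over the radial spoke genes and 0.15 over the tektins and inner proteins. The 15 heavy chains in the table together were at 234.6, 215.6 and 206.6 CPM in NCD and 195.8, 154.5 and 284.3 CPM in HFD. The median Pearson correlation between pairs of heavy chains over the 6 samples was 0.68, and between pairs of all 63 genes 0.159, as a description over samples that differ in depth. *Dnah6*, *Dnah2* and *Dnah10* followed the mean of the 63 genes most closely (r = 0.946, 0.927 and 0.915 over 6 samples). That mean contains these genes themselves and the other tested heavy chains, which raises their r. *Tekt5* and *Rsph3a* ran against it (r = -0.821 and -0.757), and 16 genes in all had r below 0, among them the abundant *Cfap36* and *Rsph3b*. Outside the 63 genes and all further gene lists used here, *Traf1* (r = 0.988), *Fnip2* and *Wdtc1* (both 0.984) followed that mean most closely. The further axonemal, ependymal and other marker genes were not ranked with them. These are the highest of many correlations, each over only 6 samples.

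Over the 63 genes, Spearman's rho between the summed exon length and the gap between HFD3 and HFD2 was 0.512, and over 14109 other genes it was 0.187, both across genes, which are not independent replicates. In the longest 5 percent of genes the median gap was 0.44 over all 709 genes and 0.93 over the 13 motile cilia genes. In the next class, of 6962 to 12659 bases, it was 0.18 over all genes and 0.97 over 11 motile cilia genes, all higher in HFD3. From 4521 to 6960 bases it was 0.00853 over all genes and 0.08 over 7 motile cilia genes, and from 2871 to 4520 bases -0.13 and, over 12 motile cilia genes, 0.67. In the class of the shortest genes, up to 2870 bases, it was -0.11 over all genes and 0.00199 over 20 motile cilia genes. The median gap of the motile cilia genes thus had no steady order over the classes. The part of gene length in the spread between the HFD samples was not tested.

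**Figure D4:**
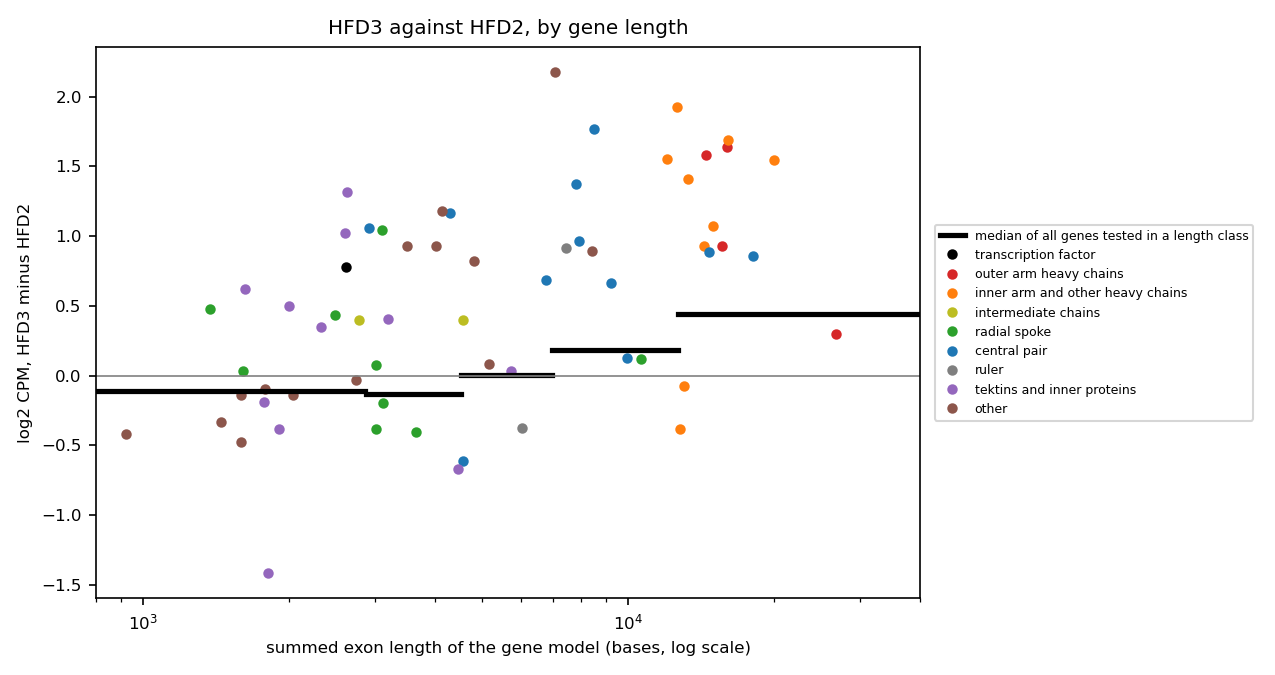
Difference in log2 CPM between HFD3 and HFD2 (y axis) against the summed exon length of each gene model (x axis, log scale) for the 63 motile cilia genes tested, coloured by part of the cilium; black bars are medians of all genes tested in 5 classes of length. Most heavy chains at the right lie above the black bar of their class, and the shortest genes scatter around 0.

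Further genes of motile cilia and ependyma stood outside the list. Of 18 tested genes of dynein docking and assembly, 11 were above and 7 below 0 (median 0.11), and of 39 other axonemal genes, 25 and 14 (median 0.07). The 11 ependymal marker genes divided into 6 above and 5 below 0 (median 0.03). Over these lists together the median was 0.0661. It turned to -0.0391 without HFD1, -0.000944 without NCD1 and -0.0323 with log2 total count as a covariate. Of the 68 genes, 44 were higher in HFD3 than in HFD2. On average, log2 CPM stood 0.248 below the gene's own mean in HFD2 and 0.0184 above it in HFD3. None of these genes passed the adjusted threshold, and 4 of the 68 had an unadjusted p under 0.05, all lower in HFD, beside 1.09% of all genes tested that were lower with such a p. They were *Dnaaf1*, which is needed to preassemble dynein arms (log2 fold change -0.98), *Drc7* of the nexin-dynein regulatory complex (-0.74), *Hdc*, which makes histamine (-0.72), and *Cdhr3*, a cadherin (-0.68). *Dnaaf1* was at 3.67, 4.78 and 5.42 CPM in NCD and 2.86, 1.58 and 2.63 CPM in HFD, with no overlap. Among the motile cilia genes themselves the 1 gene with such a p was higher in HFD, beside 1.21% of all genes tested.

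The summed ependymal markers were lowest in NCD1. They were at 438.6, 645.4 and 764.1 CPM in NCD and 803.9, 612.1 and 742.6 CPM in HFD. *S100b*, the most abundant per length (159 FPKM, also made by astrocytes), was at 105 CPM in NCD1 and between 232 and 331 CPM in the other samples. *Fam183b* was at 41.2 CPM in NCD1 and at 59.9 to 104 CPM elsewhere. Of the 11 markers, 5 were lowest in NCD1 (*S100b*, *Rarres2*, *Fam183b*, *Tmem212* and *Mia*), while *Hdc* and *Cdhr3* were highest there. The summed motile cilia genes of NCD1, 1441 CPM, did not share this low value.

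Values of genes of neighbouring cells stand beside this spread. The 15 tanycyte marker genes (most abundant per length *Mest*, none at 0) were at 350.4, 263.1 and 376.5 CPM in NCD and 398.7, 277.9 and 547.9 CPM in HFD, and 14 of the 15 were higher in HFD3 than in HFD2. Between the diets 13 were above and 2 below 0 (median 0.41), and *Crym* (0.89) and *Col23a1* (0.91) had an unadjusted p under 0.05, beside 50.5% of all genes tested above 0 and 1.21% higher with such a p. The pituitary and pars tuberalis gene *Cga* was at 9.39, 4.17 and 14.9 CPM in NCD and 14.7, 10.7 and 48.0 CPM in HFD. All 5 tested genes of that list were higher in HFD3 than in HFD2. On average over these 5, log2 CPM stood 0.769 below the gene's own mean in HFD2 and 1.19 above it in HFD3. NCD2 was lower still, at -1.04. In the sum over the list HFD2 was not low. The 9 genes in the table, with *Chga* the most abundant per length, summed to 269.7, 333.8 and 324.7 CPM in NCD and 281.3, 338.5 and 451.4 CPM in HFD. Between the diets 4 of the 5 were above and 1 below 0 (median 0.35), and *Cga* (1.36) had an unadjusted p under 0.05. The 13 choroid plexus genes in the table summed to 295.9, 229.3 and 342.3 CPM in NCD and 291.8, 218.5 and 358.2 CPM in HFD, with *Prlr* the most abundant per length, and 6 of the 10 that were tested were higher in HFD3. Between the diets 3 of these 10 were above and 7 below 0 (median -0.14), with no unadjusted p under 0.05. The part of these cells in the spread of the motile cilia genes was not tested.

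Genes of intraflagellar transport and the primary cilium, which nearly all cells share, did not follow HFD2 and HFD3. Their sum was 2176, 2096 and 2163 CPM in NCD and 2229, 2175 and 2231 CPM in HFD, and 16 of the 36 genes were higher in HFD3 than in HFD2. None of the 36 had an unadjusted p under 0.05, with 21 above and 15 below 0 (median 0.06). The marker genes of astrocytes were 4 above and 5 below 0, with *Gfap* at 0.88 the only one with an unadjusted p under 0.05. Those of neurons in general were 4 and 4, and those of ARC neurons 8 and 3, with *Cartpt* (0.75) and *Tac2* (0.60) past that mark, beside 1.21% of all genes tested.

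**Figure D5:**
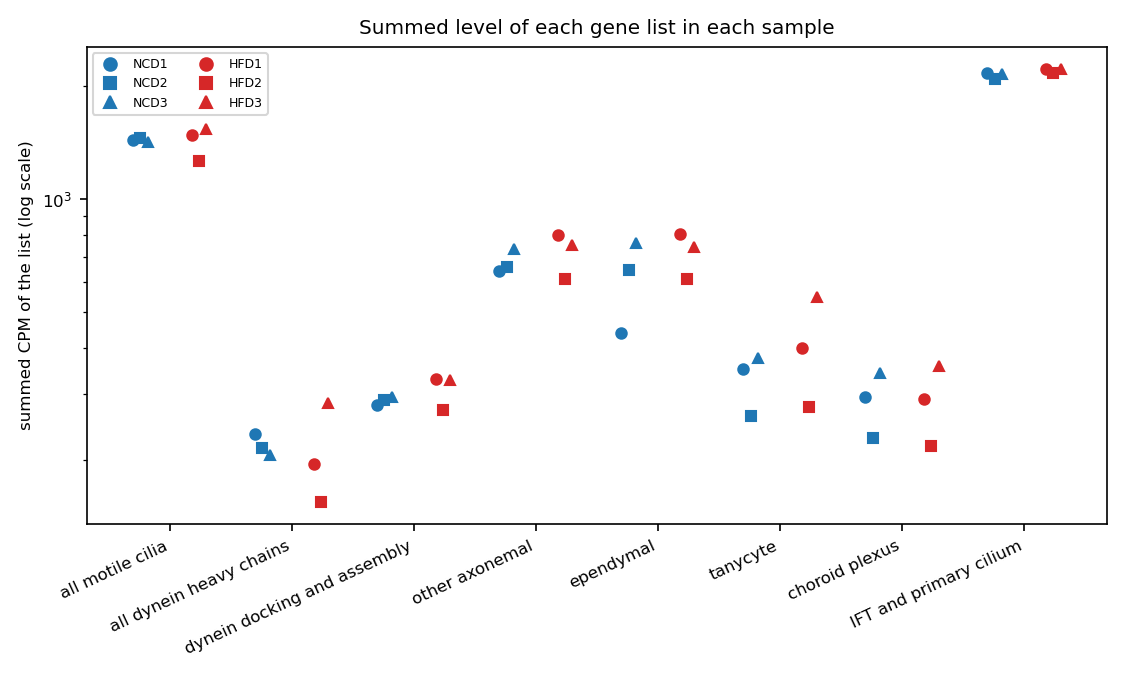
Summed CPM (y axis, log scale) of 8 gene lists in each of the 6 samples, with NCD in blue and HFD in red and one marker shape per sample number. In HFD2 the dynein heavy chains are at 154.5 CPM and the tanycyte genes at 277.9 CPM, against 284.3 and 547.9 CPM in HFD3, while the genes of the primary cilium lie between 2096 and 2231 CPM in all samples.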

How the data were processed

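The series holds ARC samples of 3 NCD and 3 HFD mice or pools in 1 table. Per the methods of the study and the labels, the authors removed ribosomal reads with bowtie2, aligned with HISAT2 to the mouse genome (mm10) and derived counts and FPKM per gene with StringTie and RSEM. Versions, annotation and strand are not given in the sources used here. The deposited counts were whole numbers, with totals of 5171381 to 15925648 per sample, and the deposited FPKM were used for levels between genes. A further 5 columns of the authors' means, fold changes and p-values were not used.

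Identifiers were named from GENCODE M21 (GRCm38), which matched 22267 and left 55 without a symbol; coordinates and exon lengths are from it. The main test was edgeR's (4.0.16) quasi-likelihood test on the counts, run in R 4.3.3 with filterByExpr, TMM and diet as the only term. It was two-sided, and its p-values were Benjamini-Hochberg adjusted over all 14188 genes tested. CPM were scaled by TMM, and log2 CPM used a prior count of 2. Alternatives were DESeq2 1.42.0, limma 3.58.1 on log2(FPKM + 1) and log2(FPKM + 0.1) for genes whose mean FPKM reached 0.5, other scalings and filters, a covariate for depth and leaving out each sample. Intervals cover 95%. The libraries of a diet differed by 14.8 to 86.0 in chi-square per gene, so none was a copy of another.

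The members and lists were chosen with earlier results of these data known. Named were the 8 genes taken by name, in each part of the cilium the 2 with the highest mean CPM, the 3 highest and 3 lowest log2 fold changes, genes with an unadjusted p under 0.05, the most abundant gene of each list and the genes most like the members' mean; others were picked out after their values were seen.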

Additional observations from a re-analysis of the deposited data

How the results depend on the processing

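No motile cilia gene had an adjusted p under 0.05 in any setting run, and the lowest was 0.604, without NCD3. *Tekt4* kept an unadjusted p under 0.05 in every setting, with log2 fold changes of 0.82 to 1.17. Genes with an unadjusted p under 0.05 numbered 2 with limma at either pseudocount (*Cfap97d2* and *Tekt4*) and under the replicate block, which takes the number of a sample as a term (*Tekt1* and *Tekt4*), and 1 to 3 when 1 sample was left out: 3 without NCD3, HFD2 or HFD3. With limma the share was 3.39%, beside 2.29% and 2.37% of all genes tested at pseudocounts 1 and 0.1. Under the replicate block it was 3.17%, beside 4.15%. It was 4.62% without NCD3, beside 8.13%, 4.69% without HFD2, beside 4.6%, and 4.62% without HFD3, beside 1.94%. Genes higher in HFD numbered 23 without HFD3 and 41 without HFD2, and the median log2 fold change went from -0.158 to 0.125. Over all genes tested, 8 were called, against 19 with DESeq2, 15 with every gene of at least 1 count, 5 with limma at either pseudocount, 17 with the replicate block, 15 with log2 total count as a covariate, and 1 (without NCD2, HFD1 or HFD2) to 16 (without NCD3) with a sample left out.

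Several fold changes turned sign, each smaller than 2 standard errors in the reported fit. *Cfap69* went to 0.00283 with RLE size factors, 0.00755 with DESeq2, 0.0146 with a mean of at least 50 counts, 0.136 and 0.137 with limma at pseudocounts 1 and 0.1, and 0.0141 with the replicate block. *Ccdc40* went to 0.0177 and 0.0408 with limma, 0.0221 with the replicate block and 0.364 with the depth covariate. That covariate also gave 0.218 for *Spag6l*, -0.445 for *Spag17*, -0.0146 for *Cfap36*, -0.211 for *Dnah12*, -0.235 for *Dnah9* and 0.00616 for *Rsph4a*. The cause was not tested. With a sample left out, the ranges were -0.301 to 0.0733 for *Spag6l*, -0.557 to 0.00934 for *Spag16*, -0.388 to 0.484 for *Spag17*, -0.274 to 0.184 for *Ccdc39*, -0.291 to 0.287 for *Ccdc40*, -0.0495 to 0.0739 for *Cfap36*, -0.0297 to 0.249 for *Rsph9*, -0.054 to 0.296 for *Cfap126*, -0.298 to 0.296 for *Cfap69*, -0.0487 to 0.472 for *Dnaic1*, -0.662 to 0.00777 for *Rsph4a*, -0.179 to 0.0311 for *Rsph3b*, -0.432 to 0.151 for *Foxj1*, -0.272 to 0.623 for *Dnah12* and -0.289 to 0.548 for *Dnah9*. Values that moved by over 1.5 times with their sign kept when a sample was left out ranged from -0.529 to -0.119 for *Hydin*, -0.457 to -0.0196 for *Ccdc153*, -0.268 to -0.0857 for *Dnah1*, -0.451 to -0.135 for *Cfap20*, -0.474 to -0.0383 for *Cfap54*, -0.488 to -0.0782 for *Dnah5*, -0.583 to -0.235 for *Dnaic2*, -0.824 to -0.259 for *Cfap70*, 0.282 to 0.836 for *Rsph10b* and 0.578 to 1.56 for *Cfap97d2*. The depth covariate gave values outside these ranges, with the sign kept, for *Cfap20* (-0.062), *Dnah1* (-0.075) and *Cfap97d2* (0.44).

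Samples of the same number correlated at -0.0116, 0.113 and 0.369 in their deviations from the diet means, and samples of different numbers at -0.0767 on average. Not every pair was over 0.1 and the labels state no pairing, so the numbers were not taken to pair the samples. The 3 genes matched by RefSeq symbol (*Cfap410*, *Cfap20dc* and *Cfap47*), an alternative chosen after seeing the data, had log2 fold changes of -0.07, -0.12 and -0.09. The shallowest library, HFD3 at 5171381 counts, gives the widest counting error.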
